A study of Mus musculus with 11 samples.

Results

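A total of 23 genes were listed both for HaCa4 cells (290 genes) and for LECs (191 genes), out of 458 genes listed for either. Because these genes have a value in every library, they are the part of the transcriptome in which the cancer cells and the lymphatic endothelial cells can be compared directly. Here, their levels were compared between HaCa4-sorted and LEC-sorted, the populations separated by FACS after 24 h of co-culture (n = 3 each). HaCa4 is a mouse skin squamous carcinoma line that carries an oncogenic H-Ras mutation. The LECs, labelled imLEC, are a conditionally immortal mouse line whose transgene drives a heat-sensitive SV40 large T antigen, and 2 clones were used interchangeably in the study. For the sorting, HaCa4 cells were marked with the dye CFSE and LECs with an antibody to CD31. HaCa4 control (n = 2) and LEC control (n = 3) grew in single culture. Whether the controls were also stained and sorted is not given in the sources used here, so co-culture and sorting cannot be told apart wherever sorted and control libraries are set side by side. The study compared sorted with control cells within each line, and the authors selected the listed genes by rules that the labels do not give.

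Lymphatic endothelial cells line the vessels that drain fluid and leukocytes from the skin. They depend on VEGF receptors and on adrenomedullin signaling, and they can express selectins and chemokines, which act on leukocytes. Squamous carcinoma cells are of epithelial origin and contain keratin filaments anchored at their cell junctions. Tumors of this kind are known to secrete chemokines, cytokines, and matrix proteases that act on the surrounding stroma. The 23 genes include members of each of these groups.

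Values are TPM, transcript levels scaled to gene length and to the total of the library, so that a level is a share of the transcripts of its own library. The shared genes summed to between 2400 and 2915 TPM in HaCa4-sorted and between 3033 and 3710 TPM in LEC-sorted. In bulk RNA, a level that comes from fewer cells and one that comes from less RNA per cell cannot be told apart. The markers *Kdr* and *Krt8* matched the labels. *Kdr*, an endothelial receptor, was between 88.48 and 116.71 TPM in LEC-sorted, and *Krt8*, an epithelial keratin, was between 205.34 and 238.24 TPM in HaCa4-sorted. The HaCa4 values also hold 22 of 42 endothelial marker genes. These summed to 4.75 and 3.46 TPM in HaCa4 control, where 12 and 11 of them were listed at 0, and to 20.9, 304, and 134 TPM in HaCa4-sorted replicates 1 to 3. *Cdh5*, which encodes the endothelial junction protein VE-cadherin, was among those at 0 in both controls and reached 1.11, 29.73, and 13.78 TPM. *Pecam1*, the gene of the sorting marker CD31, was at 0.14 and 0.04 TPM in HaCa4 control. It was at 1.29, 24.25, and 9.38 TPM in HaCa4-sorted replicates 1 to 3. The LEC values hold 3 of the endothelial markers, which summed to between 219 and 333 TPM in LEC control and between 208 and 259 TPM in LEC-sorted. The sum hides opposite directions. *Kdr* was between 136.83 and 171.5 TPM in LEC control and lower in every LEC-sorted library. *Clec14a* was also lower, between 19.56 and 36.6 TPM in LEC-sorted against 44.29 to 132.91 TPM in LEC control. *Sele* was higher, between 72.89 and 131.28 TPM against 28.8 to 32.16 TPM. Of 40 keratinocyte markers the LEC values hold 1, *Krt8*, at 0 in all 3 controls and at 0.19, 2.19, and 0.89 TPM in LEC-sorted. The HaCa4 values hold 3 of the 40, which summed to 311 and 400 TPM in the controls and to between 215 and 246 TPM in HaCa4-sorted.

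After co-culture, 12 of the 23 genes (52.2%) were higher in LEC-sorted and 6 (26.1%) were higher in HaCa4-sorted. These calls used limma on log2(TPM + 1), with an adjusted p of at most 0.05 and a difference of at least 0.5 on the log2 scale, the thresholds of the study. The shared genes are all the genes that could be tested, so these percentages are at once the result and its background. In each of the 18 called genes (78.3%), the 3 LEC-sorted libraries did not overlap with the 3 HaCa4-sorted libraries. The other 5 genes overlapped. With 3 libraries against 3, an exact permutation test cannot give a p under 0.1, which these 18 genes reached. The split depends on the scale. When the median over the shared genes was made equal in every library (median equalization), 8 genes were higher in LEC-sorted and 12 in HaCa4-sorted. It shifted the log2 differences by a median of -1.93. The equalization rests on these few selected genes, and the TPM were kept as deposited.

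**Figure D1:**
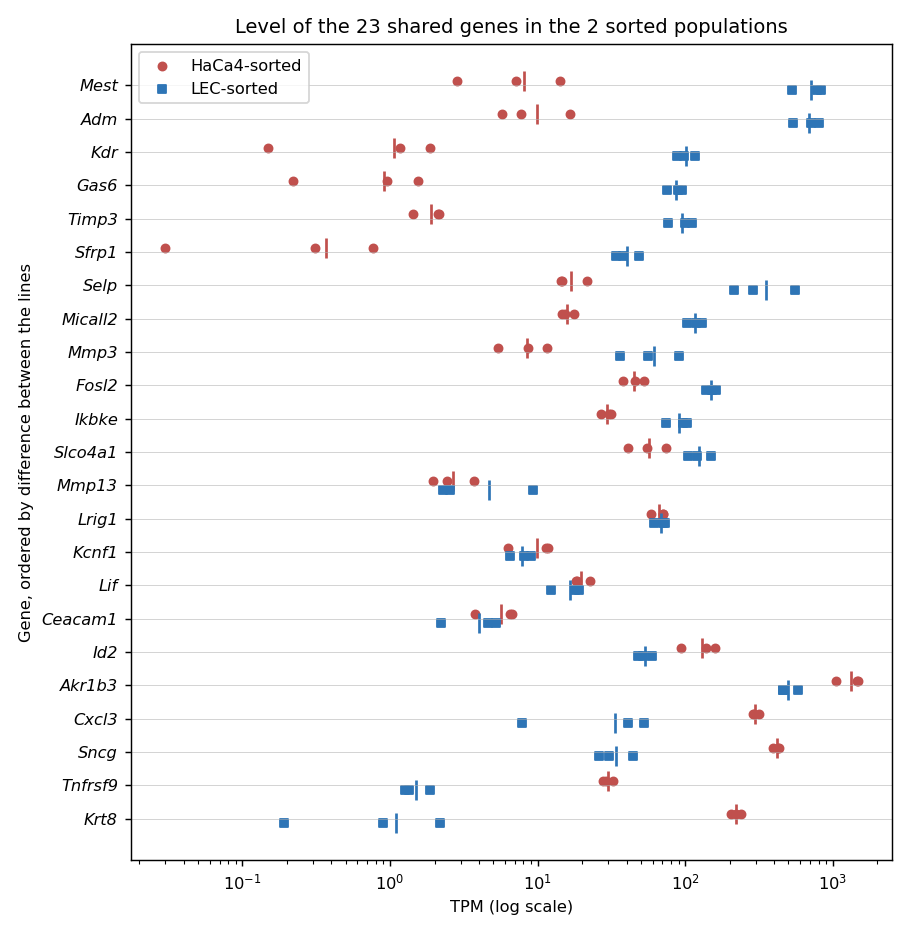
TPM of each shared gene (log axis) in the 3 HaCa4-sorted libraries (red circles) and the 3 LEC-sorted libraries (blue squares), with vertical ticks at the group means. Genes run from the highest in LEC-sorted relative to HaCa4-sorted (*Mest*) to the lowest (*Krt8*), and the groups overlap in 5 genes, from *Mmp13* to *Ceacam1*.

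The order of the genes within each population differed. In HaCa4-sorted, *Akr1b3* was the highest of the 23 (mean 1327 TPM), followed by *Sncg* and *Cxcl3*. In LEC-sorted, *Mest* was the highest (mean 713 TPM), followed by *Adm* and *Akr1b3*. The lowest were *Sfrp1* in HaCa4-sorted (mean 0.37 TPM) and *Krt8* in LEC-sorted (mean 1.09 TPM). The median over the 23 genes was 21.5, 17.6, and 15.4 TPM in HaCa4-sorted replicates 1 to 3, beside 6.33, 8.84, and 9.39 TPM over all 290 genes listed for HaCa4. In LEC-sorted it was 72.4, 88.6, and 61.6 TPM, beside 33.8, 41.6, and 36.8 TPM over the 191 genes listed for LECs.

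Among the secreted signals, adrenomedullin and 2 modulators of growth signaling were found mainly in LECs. *Adm* encodes adrenomedullin, a peptide that acts on endothelial cells and is needed for lymphatic development. It was at 810.08, 714.51, and 537.46 TPM in LEC-sorted and at 5.77, 16.46, and 7.66 TPM in HaCa4-sorted. Every LEC-sorted library was far above every HaCa4-sorted library, a log2 difference of 6.07 (standard error 0.37, adjusted p = 8.63e-07 from limma), and the means differed 69.0-fold. *Gas6*, the ligand of the TAM receptor tyrosine kinases, was at 75.13, 88.64, and 94.94 TPM in LEC-sorted and at 0.22, 1.55, and 0.95 TPM in HaCa4-sorted (log2 difference 5.57, standard error 0.31). *Sfrp1*, a secreted antagonist of Wnt ligands, was at 33.78, 38.04, and 48.85 TPM against 0.03, 0.77, and 0.31 TPM (log2 difference 4.93, standard error 0.29). No HaCa4-sorted library was above 1.55 TPM for either gene, and the means were 95.1-fold and 109-fold apart, or 147-fold and 237-fold without HaCa4-sorted replicate 2. The log2 difference of *Sfrp1* was 6.79 with a pseudocount of 0.1 and 3.06 with one of 5. Of the TAM receptors, *Mertk* was listed for HaCa4 only, at 2.86, 5.82, and 4.80 TPM in HaCa4-sorted and at 1.82 and 1.59 TPM in HaCa4 control. Replicate 2 was highest and replicate 1 lowest, as for *Gas6*. Here and below, a gene that is not listed for a line has no value there, which does not mean that it was absent.

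*Cxcl3* was the secreted factor that was higher in the cancer cells. It encodes a chemokine of the ELR+ CXC group, which attracts neutrophils through the receptor CXCR2. HaCa4-sorted libraries had 290.83, 317.72, and 287.19 TPM, and LEC-sorted libraries 40.69, 52.38, and 7.84 TPM. The HaCa4-sorted values lay close together, whereas LEC-sorted replicate 3 was far below the other two. The log2 difference was -3.47 (standard error 0.61, adjusted p = 0.000641 from limma), and the mean was 8.88-fold higher in HaCa4-sorted. Of the other 5 genes of a list of ELR+ chemokines and their receptors, *Cxcl1*, *Cxcl2*, and *Cxcl5* were listed for LECs only. In LEC-sorted, *Cxcl1* was at 1203.40, 1775.22, and 596.80 TPM, *Cxcl5* was at 149.08, 289.28, and 94.17 TPM, and *Cxcl2*, at 44.36, 48.50, and 8.58 TPM, was close to *Cxcl3*.

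*Lif* encodes leukemia inhibitory factor, a cytokine of the interleukin-6 family. Its level was similar in the 2 populations, at 17.89, 19.12, and 12.32 TPM in LEC-sorted and 22.64, 18.52, and 18.11 TPM in HaCa4-sorted. The groups overlapped, and the log2 difference of -0.27 had a 95% interval from -0.85 to 0.32. Of the same family, *Il11* was listed for HaCa4 only (41.66, 12.84, and 29.18 TPM in HaCa4-sorted) and *Il6* for LECs only (1.76, 4.31, and 3.65 TPM in LEC-sorted).

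The receptors and surface proteins divided between the lines. *Kdr* encodes VEGF receptor 2, the main signaling receptor for VEGF-A on endothelium. It was at 88.48, 97.37, and 116.71 TPM in LEC-sorted and at 0.15, 1.87, and 1.16 TPM in HaCa4-sorted, a log2 difference of 5.72 (standard error 0.36, adjusted p = 9.18e-07 from limma). *Selp* encodes P-selectin, which captures leukocytes on activated endothelium. It was at 213.66, 549.90, and 288.45 TPM in LEC-sorted and at 21.49, 14.52, and 14.36 TPM in HaCa4-sorted. Its mean was 20.9-fold higher in LEC-sorted (log2 difference 4.21, standard error 0.36), and LEC-sorted replicate 2 stood above the other two. *Sele* (E-selectin) was listed for LECs only, between 72.89 and 131.28 TPM in LEC-sorted.

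*Tnfrsf9*, the T cell co-stimulatory receptor 4-1BB, was the surface receptor that was higher in the cancer cells. It was at 28.87, 27.88, and 32.44 TPM in HaCa4-sorted and at 1.35, 1.27, and 1.87 TPM in LEC-sorted. Replicates of each population were close, and the log2 difference was -3.63 (standard error 0.23, adjusted p = 1.01e-06 from limma), or -2.42 with a pseudocount of 5. *Ceacam1* and *Lrig1* did not pass. *Ceacam1*, a homophilic adhesion molecule, was at 6.54, 3.77, and 6.67 TPM in HaCa4-sorted and at 2.20, 4.59, and 5.23 TPM in LEC-sorted (95% interval of the log2 difference from -1.24 to 0.36). *Lrig1*, which restrains the EGF receptor and marks epidermal stem cells, was the most even gene of the 23. Its levels were 70.68, 58.47, and 70.43 TPM in HaCa4-sorted and 72.44, 70.96, and 61.64 TPM in LEC-sorted, with a log2 difference of 0.04 (95% interval from -0.43 to 0.51).

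Of the matrix proteases and their inhibitor, *Timp3* and *Mmp3* were higher in LECs. *Timp3* encodes a matrix-bound inhibitor of metalloproteinases and was at 76.71, 98.96, and 110.39 TPM in LEC-sorted and at 1.44, 2.14, and 2.11 TPM in HaCa4-sorted (log2 difference 5.05, standard error 0.25, adjusted p = 7.03e-07 from limma). *Mmp3* encodes stromelysin-1, which degrades several matrix proteins and activates other proteases. It was at 55.84, 91.28, and 35.84 TPM in LEC-sorted and at 8.58, 11.53, and 5.40 TPM in HaCa4-sorted, a 7.17-fold difference of the means (log2 difference 2.66, standard error 0.39, adjusted p = 0.000238 from limma). After median equalization, the log2 difference of *Mmp3* was 0.75 and did not pass. *Mmp13* (collagenase-3) was low in both populations. Its levels of 2.55, 9.26, and 2.28 TPM in LEC-sorted overlapped with those of 3.70, 2.42, and 1.94 TPM in HaCa4-sorted, and the 95% interval of the log2 difference ran from -0.62 to 1.51. Without LEC-sorted replicate 2 the log2 difference of *Mmp13* was -0.08.

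The 3 regulators of signaling and transcription had levels within one order of magnitude of each other in the 2 lines. *Ikbke* encodes IKK-epsilon, a kinase of innate immune and NF-κB signaling. It was at 96.01, 102.25, and 73.55 TPM in LEC-sorted and at 26.75, 30.42, and 31.29 TPM in HaCa4-sorted (log2 difference 1.58, standard error 0.22). *Fosl2*, a subunit of the AP-1 transcription factor, was at 150.71, 138.09, and 162.19 TPM against 52.40, 37.68, and 45.66 TPM (log2 difference 1.72, standard error 0.21). Both were higher in LEC-sorted by limma (adjusted p = 0.000185 and 8.6e-05), but after median equalization their log2 differences were -0.41 and -0.28 and did not pass. Of the other 8 genes of an AP-1 list, *Fosb* was listed for LECs only, at 1.05, 2.61, and 1.40 TPM in LEC-sorted. *Id2* went the other way. It encodes a protein that binds basic helix-loop-helix factors and keeps them from DNA, and is a common target of BMP signaling. HaCa4-sorted libraries had 160.12, 93.60, and 137.44 TPM and LEC-sorted libraries 51.91, 47.69, and 59.36 TPM, a log2 difference of -1.25 (standard error 0.26, adjusted p = 0.00161 from limma). Of the other 10 genes of a BMP list, *Id1*, *Id3*, and *Bmp4* were listed for HaCa4 only. *Id1* was at 677.34, 415.40, and 682.52 TPM and *Id3* at 543.10, 321.44, and 566.07 TPM in HaCa4-sorted, with replicate 2 lowest, as for *Id2*. *Bmp4* was at 1.91, 5.55, and 3.94 TPM there, with replicate 2 highest and replicate 1 lowest. *Bmp6* was listed for LECs only, at 17.63, 15.37, and 14.09 TPM in LEC-sorted. Over 10 such gene lists with 59 genes, 10 were listed for both lines, 5 for HaCa4 only, 7 for LECs only, and 37 for neither, so that levels of these companions were not tested between the lines.

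Among the genes of cytoskeleton, metabolism, and transport, *Krt8* separated the lines most. *Krt8* encodes keratin 8, a filament protein of simple epithelia. It was at 220.13, 205.34, and 238.24 TPM in HaCa4-sorted and at 0.19, 2.19, and 0.89 TPM in LEC-sorted, a log2 difference of -6.85 (standard error 0.36, adjusted p = 7.03e-07 from limma) and a 203-fold difference of the means (410-fold without LEC-sorted replicate 2). *Sncg* (gamma-synuclein) was at 392.48, 424.47, and 429.94 TPM in HaCa4-sorted and at 26.22, 44.52, and 30.45 TPM in LEC-sorted (log2 difference -3.62, standard error 0.24). *Akr1b3*, the aldose reductase that turns glucose into sorbitol, was abundant in both lines. It had 1455.31, 1051.90, and 1475.03 TPM in HaCa4-sorted and 456.53, 455.97, and 578.79 TPM in LEC-sorted (log2 difference -1.41, standard error 0.22).

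Higher in LEC-sorted were *Mest*, *Micall2*, and *Slco4a1*. *Mest*, an imprinted gene expressed from the paternal allele, was at 529.93, 827.49, and 782.10 TPM in LEC-sorted and at 2.85, 14.18, and 7.16 TPM in HaCa4-sorted, the largest log2 difference toward LECs (6.49, standard error 0.47). *Micall2*, which takes part in the assembly of cell junctions, was at 117.60, 129.13, and 102.12 TPM against 14.70, 17.57, and 15.42 TPM (log2 difference 2.79, standard error 0.21). *Slco4a1*, an organic anion transporter, had the smallest difference among the called genes. It was at 104.40, 119.40, and 148.37 TPM in LEC-sorted and at 55.31, 41.22, and 73.93 TPM in HaCa4-sorted (log2 difference 1.14, standard error 0.27, adjusted p = 0.00402 from limma), but the difference was -0.87, a call toward HaCa4-sorted, after median equalization. *Kcnf1*, a modulatory potassium channel subunit, was at 11.43, 6.25, and 11.79 TPM in HaCa4-sorted and at 8.98, 6.52, and 8.13 TPM in LEC-sorted, and did not pass (95% interval of the log2 difference from -0.94 to 0.44).

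Several genes that were nearly absent from one line in single culture had a low level in that line after co-culture, given here as a percentage of the mean of the sorted population of the other line. For *Kdr*, HaCa4 control was at 0.05% or less of the LEC-sorted mean, and HaCa4-sorted replicates 1 to 3 were at 0.15%, 1.85%, and 1.15%. The corresponding values were 0.07%, 1.91%, and 0.77% for *Sfrp1*, and 0.26%, 1.80%, and 1.10% for *Gas6*. They were 0.40%, 1.99%, and 1.0% for *Mest*, 0.84%, 2.39%, and 1.11% for *Adm*, and 1.51%, 2.24%, and 2.21% for *Timp3*. These 6 genes shared the order of the summed endothelial markers, with replicate 2 highest and replicate 1 lowest. *Kdr* is itself among those markers. *Micall2* had the same order, at 14.70, 17.57, and 15.42 TPM, but was lower than in HaCa4 control (23.11 and 22.53 TPM). *Selp* did not share this order, at 6.13%, 4.14%, and 4.10%. The part of LEC transcripts in these HaCa4-sorted values was not tested, nor was that of HaCa4 transcripts in LEC-sorted values. In the other direction, *Krt8* in LEC-sorted was at 0.09%, 0.99%, and 0.40% of the HaCa4-sorted mean. *Cxcl3* and *Tnfrsf9* were at higher percentages and in other orders in the same libraries, at 13.6%, 17.5%, and 2.63% for *Cxcl3* and at 4.54%, 4.27%, and 6.29% for *Tnfrsf9*.

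**Figure D2:**
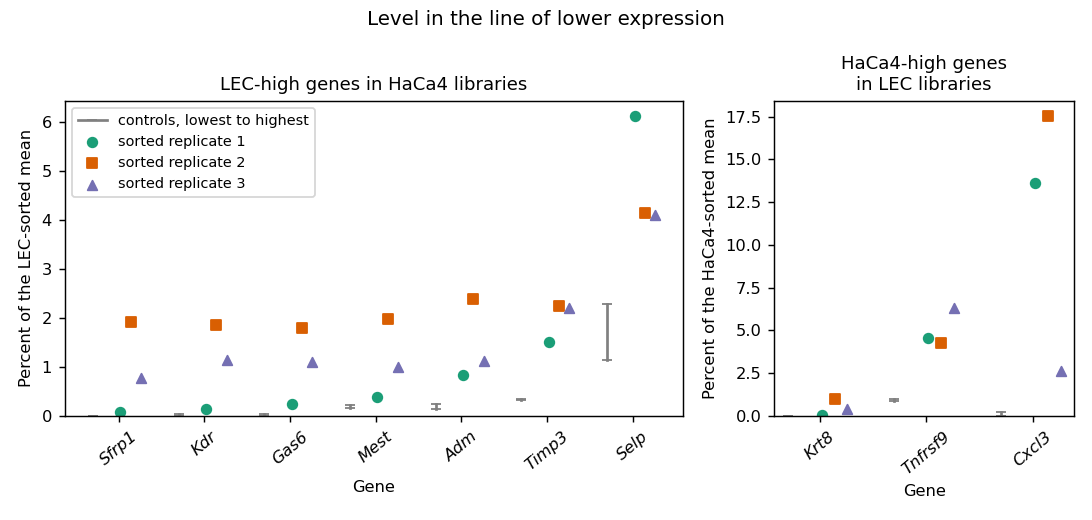
Level of shared genes in the line where they were lower, as a percentage of the mean of the other line's sorted population, for each sorted library (coloured symbols) and for the controls (grey, lowest to highest). In the left panel, 6 genes of HaCa4-sorted have replicate 2 highest, between 1.80% and 2.39%, and *Selp* has replicate 1 highest at 6.13%, and in the right panel *Krt8* stays at or under 0.99% in LEC-sorted.

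The same genes were then compared between the lines in single culture. In the controls, 13 genes (56.5%) were higher in LECs and 8 (34.8%) in HaCa4 cells by limma, and the libraries did not overlap in 22 of the 23 (95.7%). The control fit pooled the spread over all genes. Its calls, standard errors, and intervals therefore do not measure the spread of each single gene. The number of genes higher in LEC control was 10 without HaCa4 control replicate 2, when *Id2*, *Fosl2*, and *Slco4a1* were lost, and 8 after median equalization. A total of 15 genes were called in the same direction in single culture and after co-culture, 5 were called in the controls only, 2 after co-culture only, and 1 in opposite directions. The difference between the lines was smaller after co-culture in 15 genes and larger in 8. This count carries no test. The LEC list has as many genes as the paper reports changed between control and sorted LECs, and a selection by such a change also moves the difference. The HaCa4 list, with 290 genes, is longer than the paper's number of changed transcripts for HaCa4 cells.

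**Figure D3:**
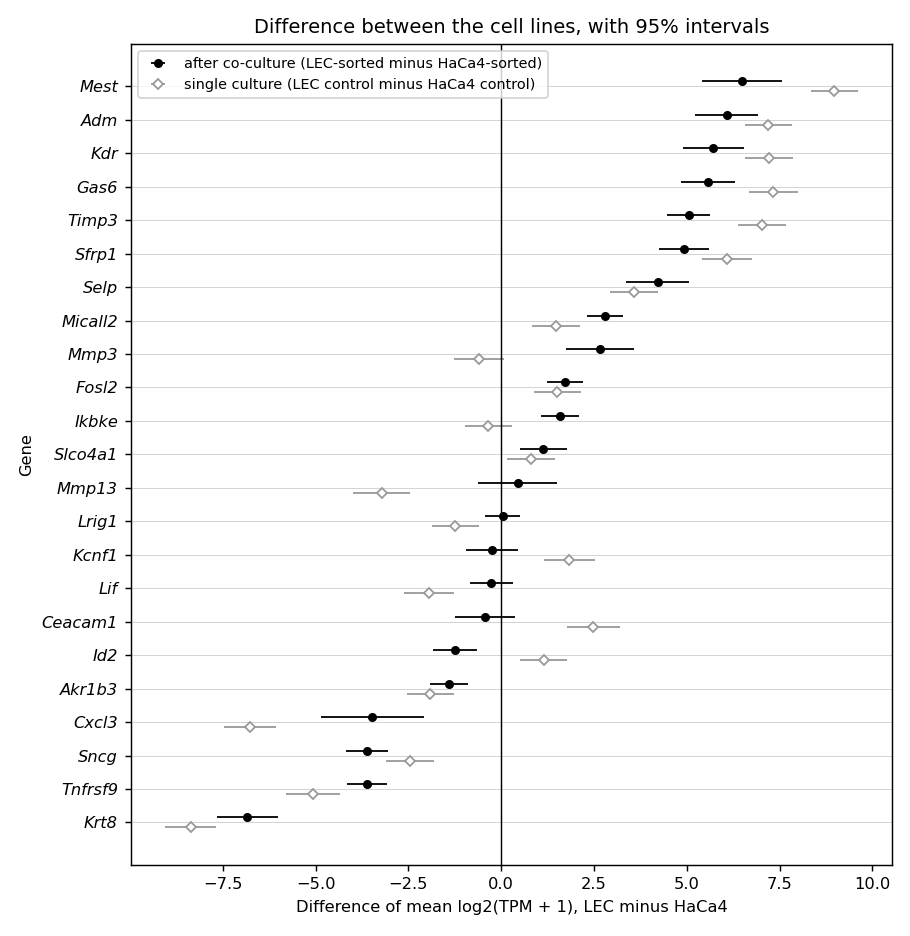
Difference between LECs and HaCa4 cells in mean log2(TPM + 1) with 95% intervals from limma, after co-culture (black) and in single culture (open grey), for the 23 shared genes. The intervals in single culture rest on a spread pooled over all genes. Values to the right of 0 are higher in LECs. The black point lies nearer to 0 than the grey one in 15 genes, and the points lie on opposite sides of 0 in 7 genes, among which *Id2* alone was called in both.

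The genes with the largest differences kept their direction. *Mest* went from a log2 difference of 8.98 in the controls to 6.49, *Kdr* from 7.21 to 5.72, *Timp3* from 7.03 to 5.05, and *Krt8* from -8.36 to -6.85. Where a line is near 0 TPM, these sizes are set in part by the pseudocount. In the controls, the log2 difference of *Kdr* was 10.27 with a pseudocount of 0.1 and 4.96 with one of 5, and that of *Krt8* was -11.68 and -6.06. For *Cxcl3* the difference went from -6.76 to -3.47. It was at 0.70, 0.00, and 0.26 TPM in LEC control and at 182.69 and 105.01 TPM in HaCa4 control. Differences that became larger in the same direction were those of *Sncg* (from -2.46 to -3.62), *Micall2* (from 1.48 to 2.79), *Selp* (from 3.57 to 4.21), *Slco4a1*, and *Fosl2*.

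*Id2* was called in opposite directions. In single culture it was higher in LECs, at 149.16, 119.20, and 98.88 TPM against 70.92 and 41.00 TPM in HaCa4 control (log2 difference 1.15, standard error 0.32 from the pooled spread). After co-culture it was higher in HaCa4 cells, and the lines did not overlap in either setting. The call in single culture was lost without HaCa4 control replicate 2, at a log2 difference of 0.76, and the log2 difference was -0.25 after median equalization. *Mmp3* and *Ikbke* were called after co-culture only. *Mmp3* had been at 7.23, 14.18, and 11.06 TPM in LEC control, just under the 17.90 and 14.95 TPM of HaCa4 control. *Ikbke* had overlapped, at 28.95, 56.91, and 32.81 TPM in LEC control and 59.24 and 39.64 TPM in HaCa4 control.

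The 5 genes that overlapped after co-culture had all been apart in single culture, as had 22 of all 23 genes (95.7%). *Lif*, *Lrig1*, and *Mmp13* had been higher in HaCa4 control, by log2 differences of -1.94, -1.24, and -3.22. *Ceacam1* and *Kcnf1* had been higher in LEC control, by 2.48 and 1.84. With a pseudocount of 5 the differences of *Mmp13* and *Ceacam1* in single culture were -1.61 and 1.48, and with one of 0.1 that of *Mmp13* was -5.01. After median equalization these 5 genes were all called higher in HaCa4-sorted, at log2 differences between -1.15 and -2.20, with the equalization itself shifting every gene toward HaCa4-sorted.

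**Figure D4:**
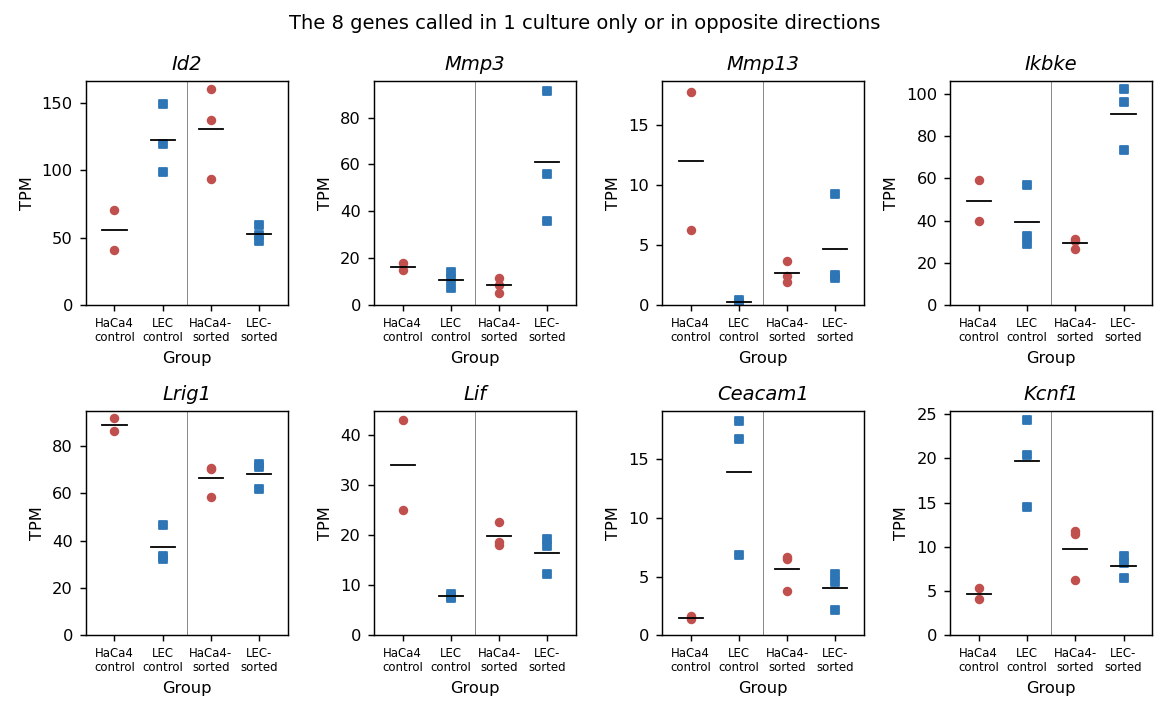
TPM of the 8 genes that were called in single culture only, after co-culture only, or in opposite directions, in every library of HaCa4 (red circles) and LECs (blue squares), with lines at the group means. *Id2* is higher in LECs on the left of each divider and higher in HaCa4 cells on the right, and *Lrig1*, *Lif*, *Ceacam1*, *Kcnf1*, and *Mmp13* overlap on the right.

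A total of 8 of the 23 genes were lower in HaCa4-sorted and higher in LEC-sorted than in their own control, namely *Ikbke*, *Krt8*, *Lif*, *Lrig1*, *Micall2*, *Mmp13*, *Mmp3*, and *Tnfrsf9*. Only group means were compared, with no test and no lowest level. *Krt8* and *Tnfrsf9* were low in LEC-sorted, at 0.19 to 2.19 TPM and 1.27 to 1.87 TPM. The part of HaCa4 transcripts in these LEC-sorted values was not tested. Promoter sequences of GRCm38.p6 from RefSeq, 250 bases before to 50 after each start, were at hand for 21 of the 23 genes. They were searched on both strands for 2 motifs, the AP-1 motif TGANTCA, because *Fosl2* is an AP-1 subunit, and an NF-κB motif of 3 G, any 2 bases, 3 T, and 2 C, because *Ikbke* acts in that pathway. The AP-1 motif was found in *Ikbke*, *Lif*, *Mmp13*, *Mmp3*, and *Tnfrsf9*, 5 of the 8 genes above, and in 1 of the other 13, *Selp*. It is held by 8.97% of all 27025 genes in any of their promoters, and by 7.81% of all 32851 promoters. The NF-κB motif was found in *Cxcl3*, *Mest*, and *Tnfrsf9*, and in 1.89% of all genes. The split into 8 and 13 genes was chosen after the values were seen, and a match describes the sequence only. For the results above, 100 bases that hold the match are shown on the strand of the gene for *Cxcl3* (chr5:90785982-90786081, plus strand), *Mmp3* (chr9:7445722-7445821, plus strand), *Mmp13* (chr9:7272414-7272513, plus strand), *Lif* (chr11:4257318-4257417, plus strand), and *Tnfrsf9* (chr4:150927899-150927998, plus strand). They are shown because these genes hold the chemokine, the cytokine, the receptor, and the neighboring protease genes of chromosome 9. Capitals mark the NF-κB motif in *Cxcl3* and the AP-1 motif in the others, with its first base at -73, -46, -35, -228, and -15 from the annotated start. For *Tnfrsf9* this is the second annotated start, and its NF-κB match is left in lower case.
Cxcl3: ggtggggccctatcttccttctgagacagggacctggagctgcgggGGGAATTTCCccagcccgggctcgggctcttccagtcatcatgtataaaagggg
Mmp3: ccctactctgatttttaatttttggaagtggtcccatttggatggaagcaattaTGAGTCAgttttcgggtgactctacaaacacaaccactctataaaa
Mmp13: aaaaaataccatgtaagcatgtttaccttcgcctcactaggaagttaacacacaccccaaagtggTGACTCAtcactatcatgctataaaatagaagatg
Lif: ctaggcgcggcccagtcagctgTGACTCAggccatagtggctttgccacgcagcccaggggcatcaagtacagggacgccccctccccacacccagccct
Tnfrsf9: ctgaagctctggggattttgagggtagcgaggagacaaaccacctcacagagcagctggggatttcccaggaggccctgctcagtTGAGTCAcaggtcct

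*Mmp13* (7272514 to 7283333) and *Mmp3* (7445822 to 7455975) lie near each other on chromosome 9. *Adm* lies on chromosome 7 from 110627657 to 110629820, *Kdr* on chromosome 5 from 75932827 to 75979072, *Cxcl3* on chromosome 5 from 90786101 to 90788093, *Selp* on chromosome 1 from 164115264 to 164150026, *Id2* on chromosome 12 from 25093799 to 25096092, and *Krt8* on chromosome 15 from 101996711 to 102004342. In 9 of the 23 genes, another annotated gene overlaps the locus, as *Copg2* does for *Mest*, *Syn3* for *Timp3*, and *Slc25a26* for *Lrig1*. How reads in such regions, or reads shared by close paralogs such as *Ceacam1* and *Ceacam2*, were assigned is not given in the sources used here, so the levels of these genes are less certain.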

How the data were processed

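RNA was sequenced on a BGISEQ platform, and reads were filtered with SOAPnuke and aligned by the authors to GRCm38.p6 with HISAT 2.0.4. For selected genes, the authors deposited TPM with 2 decimals. The tool that gave the TPM values is not given in the sources used here. TPM keeps no read number, so the depth is unknown and precision rests on the replicates. Nothing says that replicates came from separate cultures, so p-values measure the spread between these libraries, which may be technical.

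Genes were joined by symbol. Levels were compared on log2(TPM + 1) with limma 3.58.1 in R 4.3.3 (empirical Bayes, mean-variance trend, two-sided, Benjamini-Hochberg over the 23 genes), using the 6 sorted or the 5 control libraries. With so few genes, each variance leans on a prior from the same selected genes, and for the controls the spread was pooled over all genes, so that no p-value is given there. The control calls, standard errors, and intervals rest on the same pooled spread. In simulated data for LEC-sorted against HaCa4-sorted with 23 genes, of which 12 were changed, log2 differences of 1 and 2 were recovered in 70.1% and 94.9% of cases, and 3.28% of calls were false. The simulation held no transcripts of the other line and no shift of whole libraries. Its share of false calls therefore does not carry over to the real calls. All 23 genes were named. Members, lists, and tests were chosen with earlier results of these data known. Positions came from the RefSeq table of GRCm38.p6 and promoters from RefSeq. Tables were built with pandas 2.3.3 in Python 3.11.15, permutation tests with scipy 1.17.1.

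Alternatives were pseudocounts of 0.1 and 5, means of at least 1 or 10 TPM, equal medians over the shared genes, no mean-variance trend, all 11 libraries in one fit, a replicate block, a threshold of 1, medians, exact permutation tests, and leaving out each library.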

Additional observations from a re-analysis of the deposited data

Results flagged for a closer look

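*Id2* and *Mmp3* were singled out because the libraries of the lines did not overlap in either culture while the order of the lines turned. The difference between LECs and HaCa4 cells went from 1.15 in single culture to -1.25 after co-culture for *Id2*, a change of -2.40 on the log2(TPM + 1) scale. For *Mmp3* it went from -0.60 to 2.66, a change of 3.26. The change itself was not tested. Both genes are on the LEC list, whose size equals the paper's number of genes changed between control and sorted LECs. In single culture the lines lay close for *Mmp3*, with 14.18 TPM in the highest LEC control and 14.95 TPM in the lower HaCa4 control, and limma did not call it.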

How the results depend on the processing

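The calls after co-culture were 18 (12 higher in LECs, 6 in HaCa4 cells) in each of the 6 fits that left out 1 library, and also with pseudocounts of 0.1 and 5, both filters, no trend, all 11 libraries, a threshold of 1, and the replicate block. Of these, the filter of at least 1 TPM kept all 23 genes, and the smallest called difference was 1.14. That filter and the threshold of 1 could therefore change no call. Median equalization gave 12 genes higher in HaCa4-sorted, and turned the log2 differences of *Fosl2* (-0.28), *Ikbke* (-0.41), *Lrig1* (-1.96), *Mmp13* (-1.15), and *Slco4a1* (-0.87). Without 1 library, the log2 difference of *Lrig1* ran from -0.049 to 0.11 and that of *Mmp13* from -0.083 to 0.74, and neither was called. An exact permutation test of 3 against 3 cannot go below 0.1, so it gave no count of calls. In single culture, between 18 and 22 genes were called without 1 library, of which 10 to 13 were higher in LECs and 8 or 9 in HaCa4 cells. Equalization gave 8 genes higher in LEC control and turned *Id2* (-0.25) and *Slco4a1* (-0.57). The cause was not tested beyond the construction of the equalization, which shifts all differences of a comparison together. *Slco4a1* in single culture was lost in the replicate block (log2 difference 0.62), where LEC control replicate 3 has no partner. The deposited column of HaCa4 control replicate 2 is numbered 3, and a block by that number, added after seeing the data, gave 23 calls (13 and 10) with *Slco4a1* at 0.82. The difference between the lines was smaller after co-culture in 15 to 17 of 23 genes without 1 library. Whether sorted libraries with the same number came from one co-culture is not given in the sources used here. Deviations from the group means of same-numbered libraries correlated at -0.01, 0.11, and 0.59 over 23 genes. HaCa4-sorted replicate 1 correlated best with LEC-sorted replicate 2 (0.21), and replicates 2 and 3 each with the library of their own number. Correlations over these few selected genes cannot decide the pairing. The replicate block changed 0 calls among the sorted libraries. The unknown depth limits the lowest values, those of a few hundredths TPM.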
